A study of Ascaris suum with 62 samples.

Results

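The regions described here are short blocks of the *Ascaris suum* genome that the authors marked as eliminated and that lie beside retained DNA on the same scaffold. On each of the 40 scaffolds whose CENP-A peaks carried both marks, the peaks of the 12 stage lists were pooled and sorted by start, and runs of consecutive eliminated peaks were taken. Runs that spanned under 400 kb from the first start to the last end were kept. They number 39 runs on 37 scaffolds and hold 924 of 163819 peaks, or 0.564%. Together they span 2.22 Mb, which is 18.2% of the span marked eliminated. The other eliminated DNA lies in 5 longer runs on mixed scaffolds (4.14 Mb) and on 23 scaffolds with no retained peak (5.81 Mb). Retained peaks form 600 runs.

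The samples are genomic DNA pulled down with an antibody to CENP-A from gonads, embryos and larvae of the pig roundworm. The late lists are embryos incubated for 5 days (5day) and 7 days (7day) at 30 °C, and larvae of stage L1. The hours lists are embryos at 0hr, zygotes from the proximal uterus, and after 46 and 60 hours (46hr, 60hr). The gonad lists are ovary1 to ovary3 and testis1 to testis3, and the labels do not say what these numbers stand for. No group was treated and no strain or allele is given. Each stage has 1 peak list with the reads of 2 libraries, so an SD below is a spread between the lists of a class. Nothing says that lists came from separate animals, and p-values measure only the spread between these lists. Reads in peaks were 1005578 to 14901685 per library.

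CENP-A is the histone H3 variant of centromeric chromatin, on which kinetochores are built. *Ascaris* chromosomes are holocentric, so CENP-A is spread along the chromosome rather than held at a single site. In *Ascaris*, the germline keeps the whole genome, while cells that become somatic break their chromosomes during early cleavage and lose part of the DNA, a process called programmed DNA elimination. Fragments that do not attach to the spindle are left behind at division. A scaffold end is an end of the assembled sequence and need not be a chromosome end.

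The 39 runs had a median span of 36.1 kb, with 1.69 kb as the shortest and 384.8 kb as the longest. A run counts as an end run when it holds the first or the last peak of its scaffold. The 19 end runs held 551 peaks over 1305 kb, and the 20 internal runs held 373 peaks over 911.9 kb. Their median spans were close, at 36.1 kb for end runs and 37.2 kb for internal runs. The longest run took up 91.5% of scaffold 148 (892 to 385674, at the scaffold's end, 187 peaks). The longest internal run lay on scaffold 174 (39056 to 165737, 126.7 kb, 85 peaks). Coordinates are those of the authors' assembly AgBionano_v1.9 as deposited. The 3 longest members spanned 384.8, 190.6 and 126.7 kb (scaffolds 148, 35 and 174), and the 3 runs just over the limit spanned 406.7, 497.4 and 840.4 kb (scaffolds 126, 68 and 10).

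The first question was how much of these runs lay under CENP-A peaks at each stage. Cover is the percent of the summed span inside peaks. It was 9.22%, 5.72% and 25.6% in ovary1, ovary2 and ovary3, and 13.9%, 5.03% and 6.39% in testis1, testis2 and testis3. The 0hr, 46hr and 60hr embryos had 14.9%, 7.08% and 3.83%. The 5day, 7day and L1 lists had 3.54%, 1.68% and 2.48%. Ovary3 and 0hr were the highest lists, and each late list lay below every other list. With peaks at or over the median density alone, both statements changed: testis1 (12.3%) was above ovary3 (10.1%) and 0hr (7.75%), and 5day (2.79%) and L1 (1.588%) were above 60hr (1.580%). Cover averaged 2.57 ± 0.937% in the late lists (SD, n = 3), 8.60 ± 5.68% in the hours lists (SD, n = 3) and 10.99 ± 7.88% in the gonad lists (SD, n = 6). In retained runs the same averages were 17.4 ± 0.767%, 21.7 ± 0.629% and 12.1 ± 4.24%. The mark itself says that somatic cells lose this DNA, so low cover in the late lists is largely fixed by how the runs were chosen. From the CENP-A peak lists alone, fewer cells that still hold the DNA and less CENP-A on the DNA cannot be told apart. The series also holds input libraries of these stages. They were not used, and the values here were not set against input.

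**Figure D1:**
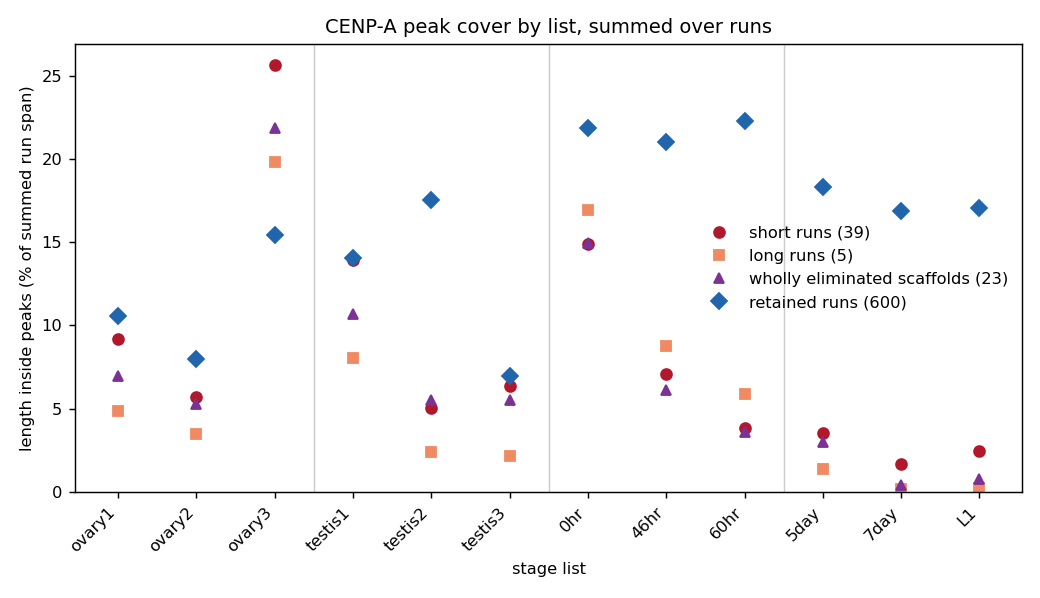
Peak cover in each of the 12 lists (x axis) as percent of summed run span (y axis), for the short eliminated runs, the 5 long runs, the wholly eliminated scaffolds and the retained runs, 1 point per list. Short runs had 25.6% in ovary3 and 14.9% at 0hr, and 3.54%, 1.68% and 2.48% in the late lists.

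Cover was lower at 60hr than at 0hr in every run with a peak in either list. A peak was called at 0hr in 33 of the 39 runs, at 46hr in 25 and at 60hr in 18. Cover at 60hr was under that at 0hr in 33 runs and above it in 0, with 6 runs without a peak in either list. Among all 667 runs, retained ones included, the share with a lower 60hr value was 38.8%. At 46hr cover was under that at 0hr in 29 runs and above it in 5 (44.7% of all runs were under). Each of these stages is 1 list, so these counts have no replicate check. Runs on scaffold 145 (end, 13779 to 81195) and scaffold 90 (end, 959799 to 976491) show the course. On scaffold 145, cover was 35.2% at 0hr, 24.96% at 46hr and 16.9% at 60hr, with no peak in the late lists. On scaffold 90, it was 70.8%, 60.5% and 33.8% at the same times, again with no late peak.

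Peaks at 46hr and 60hr mostly lay where the list before them had peaks. Of the length under peaks at 46hr within these runs, 71.2% lay in 0hr peaks, and of the 60hr length 67.0% lay in 46hr peaks. Of the 0hr length, 68.3% lay in ovary3 peaks, which made up 39.7% of the ovary3 length. In the next step, 18.6% of the 5day length lay in 60hr peaks (17.2% of the 60hr length). Among the late lists, 93.4% of the 7day length lay in L1 peaks (63.2% of the L1 length) and 90.3% in 5day peaks, which was 42.7% of the 5day length. Of the L1 length, 90.2% lay in 5day peaks (63.0% of the 5day length). Merged over the 12 lists, the peaks formed 262 sites. A single list held 110 of them (42.0%), and 42 were in 6 or more lists (16.0%). In retained DNA these shares of sites were 37.8% and 26.7%. Sites found in ovary3 or an hours list and nowhere else numbered 131 and took 29.1% of the site length, against 38.96% in the long runs, 25.9% on the wholly eliminated scaffolds and 8.88% in retained DNA. A late list held 16 sites, with 11.8% of the length in short runs and 67.1% in retained DNA. No site of the 262 in the short runs was in late lists alone. Such sites were few elsewhere too, with 10 of 413 in the long runs (2.42%) and 7 of 567 on the wholly eliminated scaffolds (1.23%). In retained DNA they were 1222 of 24855 (4.92%). These shares have no test, since sites of 1 list share a library.

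**Figure D2:**
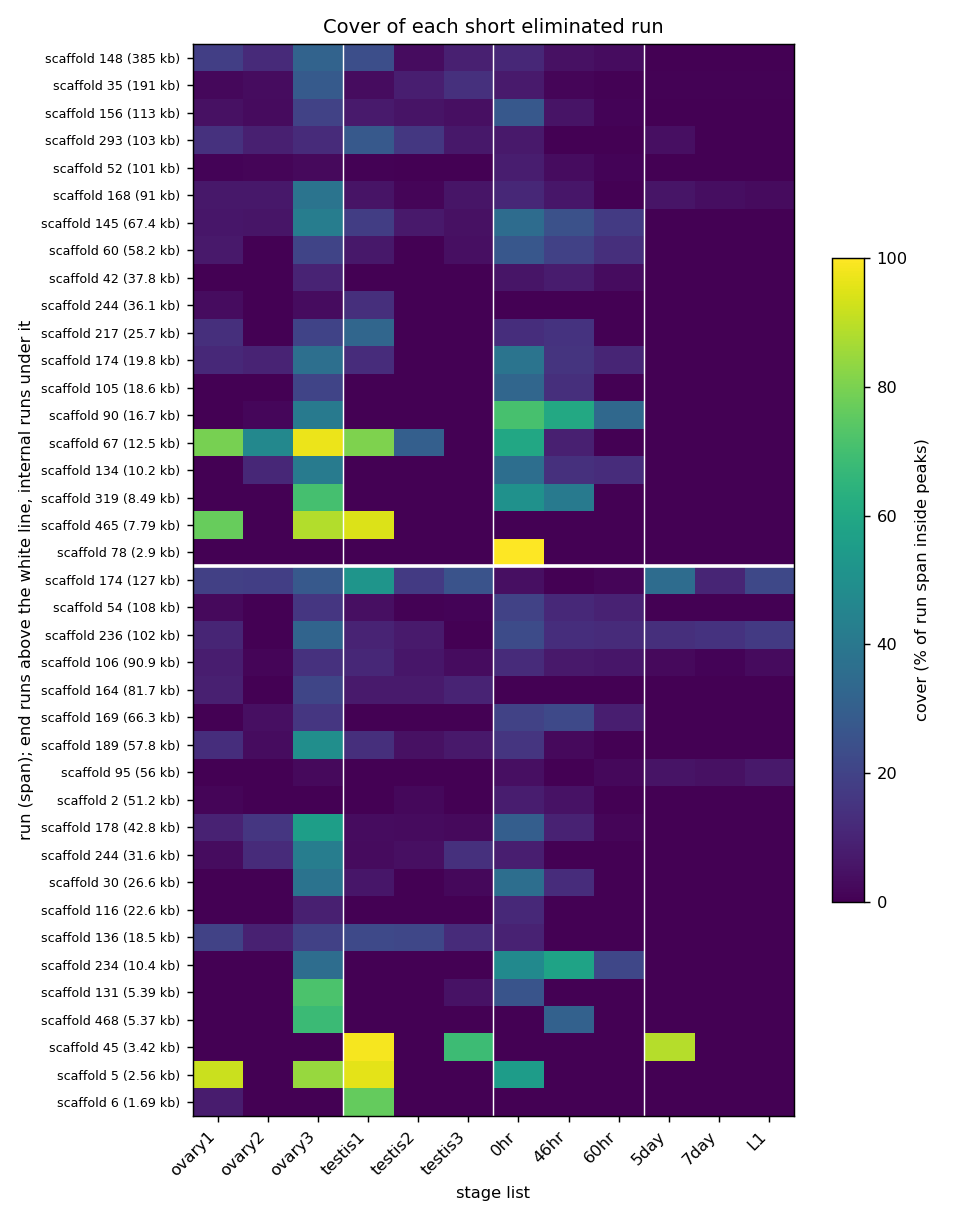
Cover of each of the 39 short runs (rows, with span in kb, longest first; end runs above the white line, internal runs under it) in the 12 lists (columns), as percent of run span. The late columns are empty in 30 of the 39 runs, and ovary3 and 0hr hold the highest value in 17 and 10 runs.

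In 17 of the 39 runs ovary3 had the highest cover of the 12 lists, in 10 it was 0hr and in 9 testis1. This ranking was not counted over all runs. The lists differ in size, with 17643 peaks in ovary3, 21837 at 0hr and 12707 in testis1. A peak was called in ovary3 in 35 runs (428 of all 667 runs) and in a testis list in 28. In 11 runs no testis list had a peak while ovary3 or 0hr had. This count and the count of runs with a testis peak were not made over all runs. On scaffold 319 (end, 8.49 kb), for example, cover was 70.4% in ovary3, 50.8% at 0hr and 41.3% at 46hr, with no peak in any other list. On scaffold 169 (internal, 141700 to 207954), it was 3.98% in ovary2, 16.0% in ovary3, 19.8% at 0hr, 21.95% at 46hr and 8.30% at 60hr. Testis lists and ovary1 had no peak there. Scaffold 465 (end, 7.79 kb) stood at the other side, with 76.9% in ovary1, 88.5% in ovary3 and 94.7% in testis1, and no peak after the gonads. Run borders are peak borders, so very short runs have high cover by construction. The run on scaffold 78 (end, 2.90 kb) was called in the 0hr list alone.

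Ovary was then set against testis over the 3 lists of each. Cover averaged 13.5 ± 10.6% in the ovary lists and 8.45 ± 4.80% in the testis lists (SD, n = 3 each), and the lists overlapped. Of the 35 runs that passed the filter on low counts, 0 were called in the reads test, edgeR's quasi-likelihood test with Benjamini-Hochberg adjustment over all 553 runs tested, where 3.98% were called higher and 0.362% lower in ovary. At an unadjusted p under 0.05, 6 were higher and 1 lower in ovary, with no share over all runs counted. DESeq2 called 7 higher and 1 lower, and 50 higher and 42 lower of all 553 runs. On cover, limma called 0 of 39 runs and 0 had an unadjusted p under 0.05, and over all 663 runs tested 0% were called in either direction. The median difference in cover was 6.65 percentage points in the 39 runs and -1.62 over all runs, ovary minus testis. Ovary3 was the highest gonad list in 29 of the 39 runs, a ranking not counted over all runs.

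Read density was the second measure. Scaled density is the reads per kb of peak per 1000000 reads in peaks of that library, as the mean of the 2 libraries. It averaged 21.6 ± 12.1 in the late lists, 19.5 ± 1.83 in the hours lists and 74.2 ± 27.2 in the gonad lists (SD, n = 3, 3 and 6). By list it was 68.8 in ovary1, 75.9 in ovary2 and 25.9 in ovary3, and 106.4 in testis1, 76.8 in testis2 and 91.5 in testis3. Ovary3, the list with the most cover, thus had the lowest gonad density. The 0hr, 46hr and 60hr values were 21.4, 19.2 and 17.8, and the 5day, 7day and L1 values were 35.6, 13.7 and 15.6. Relative to retained peaks of the same list, density was 2.07 times as high in ovary1, 1.69 in ovary2, 1.15 in ovary3, 4.53 in testis1, 3.72 in testis2 and 1.82 in testis3. It was 1.43 times that of retained peaks at 0hr, 1.13 at 46hr, 1.06 at 60hr and 1.75 at 5day, and lay under it at 7day (0.615) and in L1 (0.705). Mean density depends on how much length a list calls, which is why the retained peaks of the same list are given beside it. Single peaks weigh on these ratios. In testis1, peaks of the internal run on scaffold 174 held 13.5%, 11.9%, 9.75% and 8.31% of the reads in short runs. At 5day a single peak of that run held 25.9%, and in testis2 a peak on scaffold 293 held 34.7%. Ratios without these runs are not given.

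The libraries of a stage did not always give 1 value. By their titles, 1 library of each stage is SE (single-end) and the other PE (paired-end), so the columns differ in library type. In testis3 the columns gave 122.4 and 60.6, and the ratio to retained peaks was 2.48 in the first column and 1.16 in the second. At 5day they gave 27.6 and 43.6. In the other 10 lists the columns differed by less than 1.5 times. On wholly eliminated scaffolds, density at 0hr was 114.6, or 7.64 times that of retained peaks, where the short runs had 1.43 times. At 46hr those scaffolds had 6.27 times the retained density and the short runs 1.13 times. These differences between kinds of eliminated DNA have no test, since each stage is 1 list.

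**Figure D3:**
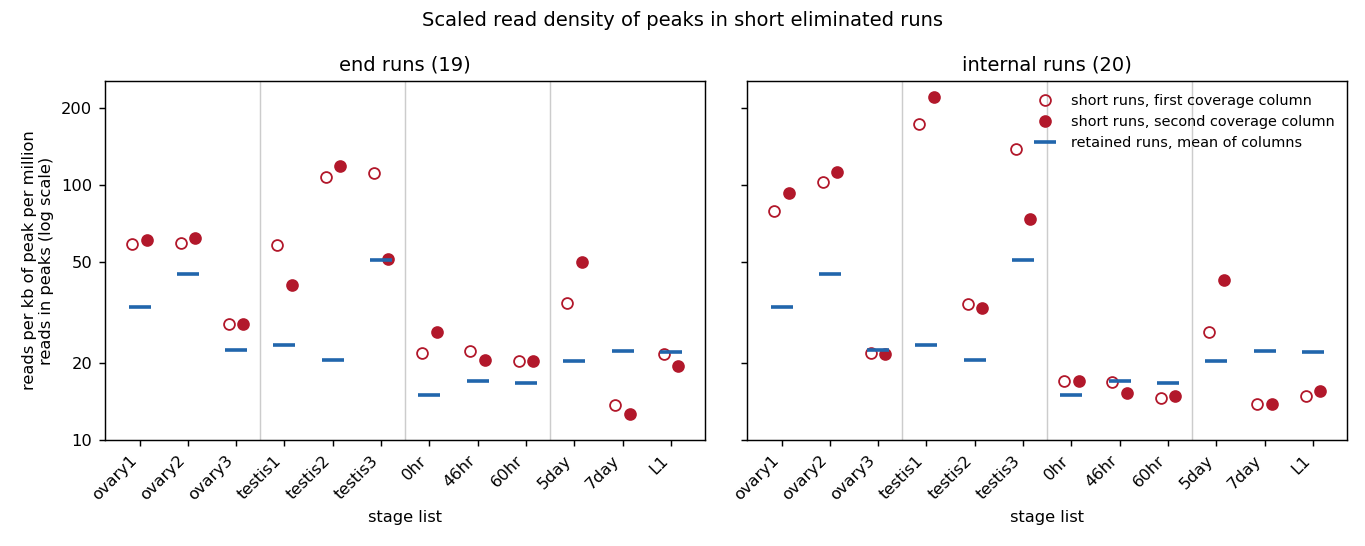
Scaled read density (y axis, log scale, reads per kb of peak per 1000000 reads in peaks) in the 12 lists (x axis), for end runs (left) and internal runs (right). Open and filled circles are the first and second coverage columns, and bars are the mean over retained runs. Internal runs reached 197.1 in testis1, and end runs lay above internal runs in ovary3 and the hours lists.

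Single peaks held very different shares of the reads in short runs. The top peak held 13.6% in ovary1, 9.28% in ovary2 and 3.96% in ovary3, and 13.5% in testis1, 34.7% in testis2 and 7.21% in testis3. The densest lay on scaffold 293 (end run, 3475 to 106020) at 35707 to 36770, with scaled densities of 2412 and 3036 in the columns of testis2. It was 1063 bp wide and was the top peak of testis2. The testis1 peak at the same place had 1991 in the first column and 152 in the second, so the columns disagreed there. On scaffold 35 a peak at 2019517 to 2020827 had 1207 and 1095 in testis2, and held 17.1% of the testis2 reads in these runs. Ovary1 had a peak at the same place with 1006 and 875. At 0hr a peak on scaffold 148 (360760 to 361806) had 282.5 in the first column and 1362 in the second. By run, mean gonad density over the lists with a peak was highest on scaffold 45 (414.3, from 2 testis lists), scaffold 35 (144.8, from 6 lists) and scaffold 174 (143.2, from 6 lists).

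Before the late lists, end and internal runs had overlapping cover. Cover of end and internal runs averaged 11.5 ± 8.19% and 10.3 ± 7.49% in gonads (SD, n = 6), and 8.66 ± 6.21% and 8.51 ± 4.92% in the hours lists (SD, n = 3). Ovary3 was the highest of the 6 gonad lists in 15 of 19 end runs and 14 of 20 internal runs. Cover at 60hr was under the 0hr value in 17 of 19 end runs and 16 of 20 internal runs. Both kinds had less cover after 60 hours. In the hours lists, density was higher in end runs by 6.07 ± 0.961 (SD, n = 3), at 22.03 ± 1.93 in end runs and 16.0 ± 1.13 in internal runs. With runs under 200 kb alone, which leaves out scaffold 148, this difference was 0.814. In gonads it went the other way on average, with 65.4 ± 29.0 in end runs and 91.8 ± 63.0 in internal runs (SD, n = 6). Without the internal run on scaffold 174, end runs were higher by 22.6.

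In the late lists, summed cover was lower in end runs. At 5day, 7day and L1, end runs had 0.896%, 0.409% and 0.307%, and internal runs 7.33%, 3.49% and 5.58%. The number of runs did not follow: 15 of 19 end runs and 15 of 20 internal runs had no late peak at all, 30 of 39 in all (22.6% of all 667 runs had none). The difference in summed cover, end minus internal, was -4.93 ± 1.70 percentage points (SD, n = 3), and -2.19 without the internal run on scaffold 174. When runs within 10 kb of the first or last peak of a scaffold were counted as end runs, it was -2.71. It rests on few runs and was not tested, since runs of the same libraries are not replicates.

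Late peaks lay in 9 runs, and 6 of them had a peak in every late list. Internal runs on scaffolds 174 and 236 held most of the late covered length. Scaffold 174 held 56.9% of it at 5day, 35.8% at 7day and 49.8% in L1, and scaffold 236 held 17.7%, 40.4% and 31.3%. The other runs with a peak in every late list lay on scaffolds 95 and 106 (internal) and on scaffolds 35 and 168 (end). A late peak in fewer lists was found on scaffold 148 (end, 5day and 7day), scaffold 293 (end, 5day) and scaffold 45 (internal, 5day). Without the 6 runs that had a peak in every late list, cover of the remaining 33 was 0.525% at 5day and 0.0338% at 7day, and L1 had no peak. For comparison, the long runs had 1.36%, 0.198% and 0.241% and the wholly eliminated scaffolds 3.00%, 0.429% and 0.807% in the same lists.

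Scaffold 236 (internal, 4884 to 107165) had late cover above its 60hr value. The 5day, 7day and L1 values were 13.6%, 14.7% and 16.8%, against 23.03% at 0hr, 13.1% at 46hr and 12.5% at 60hr. In gonads its lowest, median and highest cover were 0%, 8.47% and 32.2%. The density there was 13.8, 16.0 and 14.9 in the late lists and 15.3, 15.0 and 12.9 in the hours lists. All late peaks of this run lay between 40438 and 59698, at least 37822 bp from the nearest retained peak. Late minus gonad cover was 5.10 ± 6.05 percentage points (SE, limma adjusted p = 0.543), and the lists overlapped.

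Scaffold 174 held the longest internal run, with more of the late covered length than any other run at 5day and in L1, and less than scaffold 236 at 7day. Its 5day, 7day and L1 cover was 35.3%, 10.51% and 21.6%, against 4.12% at 0hr, none at 46hr and 1.36% at 60hr. In gonads it had 18.8% in ovary1, 18.6% in ovary2 and 27.8% in ovary3, and 52.2% in testis1, 16.9% in testis2 and 25.4% in testis3. Late and hours lists did not overlap, but the difference of 20.6 ± 8.78 percentage points (SE) had a limma adjusted p of 0.194 over all runs. Most lists had unlike cover on the sides of its midpoint, but testis1 did not, with 53.1% before it and 51.4% past it. Before its midpoint, cover was 4.25% at 5day and 0% at 7day and in L1, against 29.9% in ovary2 to 55.6% in ovary3 among the gonads. Past the midpoint the 5day, 7day and L1 values were 66.4%, 21.02% and 43.2%, with no peak in the hours lists. There testis1 had 51.4%, the other gonad lists 0% to 7.45%, and ovary3 and testis2 no peak. The midpoint was set after the peaks had been seen.

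**Figure D4:**
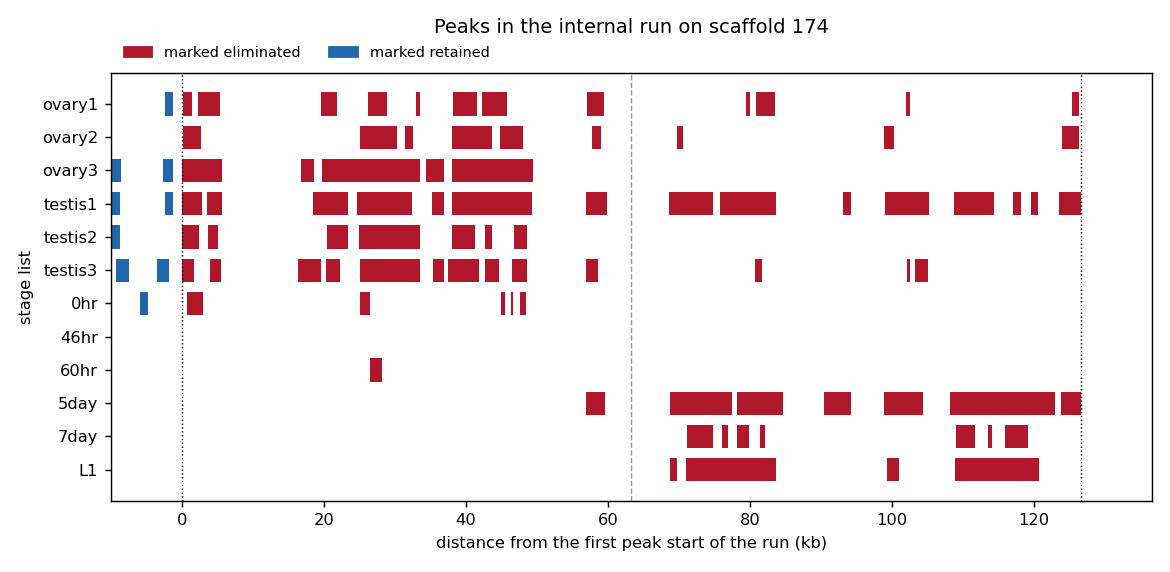
Peaks in the internal run on scaffold 174 in each of the 12 lists (rows), by distance in kb from the first peak start of the run (x axis); dotted lines mark the run's borders and the dashed line its midpoint. Before the midpoint peaks are in gonad lists above all, and past it in testis1 and the late lists above all, with none in ovary3, testis2 or the hours lists.

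The density of that run was highest in testis1. It was 188.2, 155.9 and 29.1 in ovary1, ovary2 and ovary3, and 311.0, 46.6 and 128.2 in testis1, testis2 and testis3. In testis1, its 15 peaks held 71525 and 95123 reads in the 2 columns. Late density was 44.3 at 5day (32.8 and 55.8 in the columns), 11.8 at 7day and 15.9 in L1. Cover in the late lists thus came at low density at 7day and in L1, under the 22.3 and 22.1 of retained peaks. The other run on this scaffold, at its end (293829 to 313616), had no late peak and 38.7%, 15.1% and 10.4% cover at 0hr, 46hr and 60hr.

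Mean cover in the late lists was above that in the hours lists in 3 runs, all internal: scaffolds 174, 45 and 95. The run on scaffold 95 (297071 to 353047) had 5.24%, 4.37% and 6.82% in the 5day, 7day and L1 lists, against 2.38% in ovary3, 0.325% in ovary1 and no peak in the other 4 gonad lists. It was the 1 run called higher in the late lists than in gonads on cover, by 5.02 ± 1.23 percentage points (SE, limma adjusted p = 0.0172). The adjusted p was 0.0602 without 5day, 0.0847 without L1 and 0.0866 on log2 reads per kb. Over all 663 runs, 18.1% were called higher and 2.41% lower. Scaffold 45 (internal, 526726 to 530150, 3 peaks) had a peak at 5day (88.8%), in testis1 (98.7%) and in testis3 (68.6%) and nowhere else. Its density was 19.7 at 5day against 430.1 in testis1 and 398.5 in testis3.

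Reads in peaks were then compared between late and gonad lists over all runs. Of the 35 members tested, 8 were called lower in the late lists and 0 higher (edgeR quasi-likelihood test, Benjamini-Hochberg adjusted p under 0.05), against 8.14% of all 553 runs lower and 13.7% higher. At an unadjusted p under 0.05, 15 were lower and 1 higher, with no share over all runs counted. DESeq2 called 23 lower and 2 higher, and 112 lower and 110 higher of all 553 runs. Nothing is read from these counts. Scaffolds 145, 156, 178, 189, 54 and 164, 6 of the 8 runs, had no peak in any late list, which is not a count of 0 in the DNA. They passed the filter on low counts through the other lists. The eliminated mark also makes low late values likely, though 3 of the 39 members had more cover late than in gonads. Neither a p nor a fold is therefore given for these 6 runs. The edgeR count was 5 without testis1, 5 without 5day, 4 without 7day and 5 without L1.

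The run on scaffold 35 (end, 2019469 to 2210111) had peaks in all 12 lists and so gives a fold. Reads are given per 1000000 reads in peaks (RPM), as the mean of both libraries. The run had 20.6 RPM at most in the late lists (12.5 at least, median 17.8), against 543.0, 1776 and 2202 as the lowest, median and highest in gonads. The groups did not overlap, in the direction that the mark makes likely. In reads, the late lists had a change of -6.59 ± 1.08 on the log2 scale (SE, edgeR adjusted p = 0.00291). This adjusted p was at most 0.0212 over the alternatives to the reads test. On cover, limma did not call this run, with -9.27 ± 5.45 percentage points (SE, adjusted p = 0.249). Over the alternatives to the cover test, the limma adjusted p ran from 0.00024 to 0.407. The single late peak of each list lay at one place, 2085158 to 2086691 over the 3 lists, at least 81861 bp from the nearest retained peak. In 9 of the 39 runs every late list had less cover than every gonad list (5.85% of all 667 runs).

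The run on scaffold 145 had no late peak, against 103.9, 235.8 and 564.1 RPM as the lowest, median and highest in gonads and 334.5, 294.0 and 157.7 RPM at 0hr, 46hr and 60hr. Scaffold 156 (end, 264423 to 377800) had no late peak either, against 257.5, 425.8 and 578.4 RPM in gonads. On scaffold 178 (internal, 98188 to 140942), the gonad values were 18.7, 116.9 and 472.8 RPM, again with no late peak. These runs thus had peaks in all gonad and hours lists and in no late list.

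Scaffold 148, with the longest run, had 295 reads at 5day, 27 at 7day and no peak in L1, against 5714 to 50048 in the gonad lists, both libraries summed. It had 16.2 RPM at most in the late lists, against 395.3, 3024 and 3797 as the lowest, median and highest in gonads. Late lists were lower, in the direction that the mark makes likely. A fitted fold would depend in part on the list without a peak, so neither a p nor a fold is given for this run. The other runs of the 8 were scaffold 189 (internal, 22576 to 80336), scaffold 54 (internal, 332169 to 440512) and scaffold 164 (internal, 100184 to 181878), each without a late peak. Scaffold 164 had no peak in the hours lists either, while 5 of 6 gonad lists had cover of 7.05% to 21.0%.

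**Figure D5:**
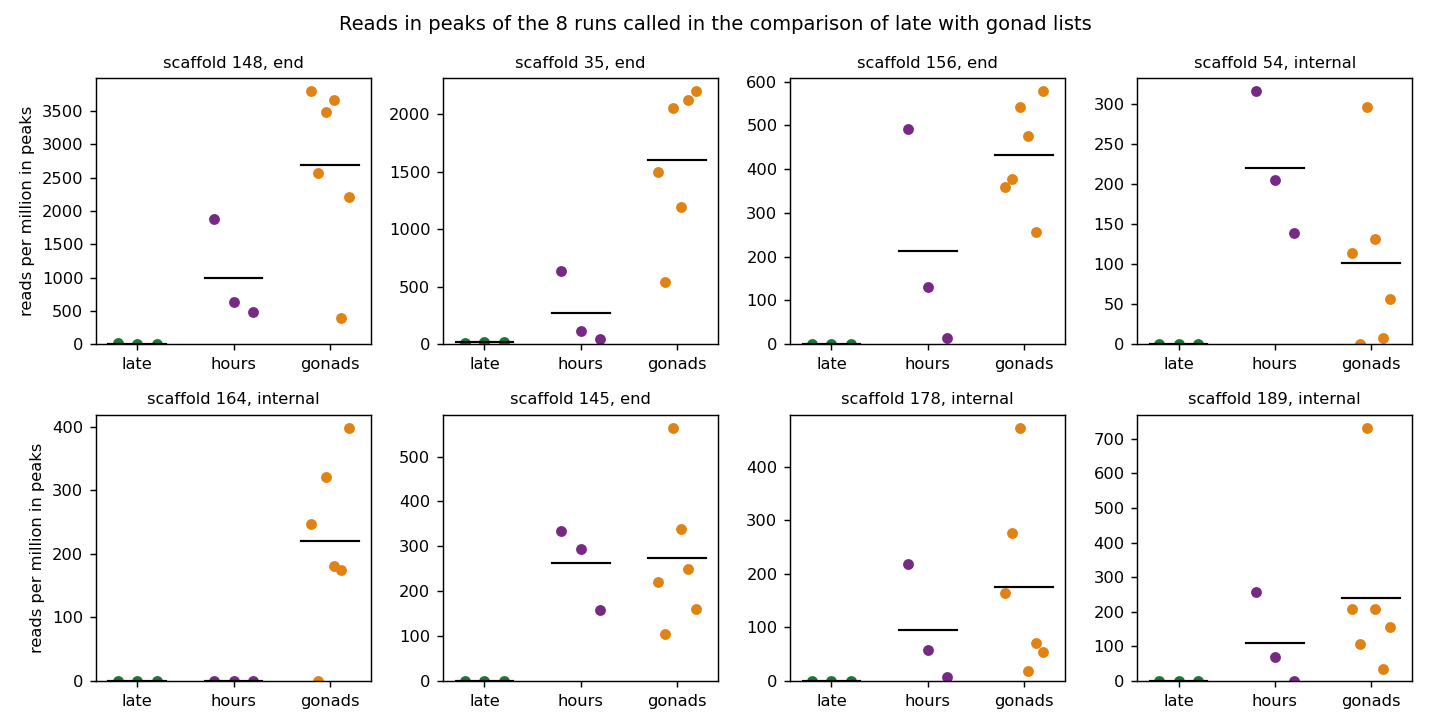
Reads per 1000000 reads in peaks (y axis, linear) in the late, hours and gonad lists (x axis) for the 8 runs called lower in the late lists than in gonads, 1 point per list with the class mean as a bar. Late points lie at or near 0 in each panel, and on scaffold 164 the hours points do too.

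Against the hours lists, 3 of the 35 members were called lower in the late lists by reads and 0 higher (1.99% of all runs lower, 0.181% higher). They were scaffolds 145, 156 and 178, which had no late peak, so nothing is read from these calls either. At an unadjusted p under 0.05, 19 were lower and 0 higher, with no share over all runs counted. The edgeR count of adjusted calls was 5 without 60hr. DESeq2 called 24 lower and 1 higher, and 76 lower and 36 higher of all 553 runs. On cover, limma called 2 members lower against the hours lists and 0 higher (2.26% of all runs lower, 3.77% higher). At an unadjusted p under 0.05, 9 were lower and 2 higher, again with no share over all runs counted. Both called runs, on scaffold 90 and scaffold 234 (internal, 103264 to 113684), had no late peak. Scaffold 234 had 47.5% at 0hr, 58.0% at 46hr and 21.1% at 60hr. Against gonads, limma on cover called 1 member lower, on scaffold 136 (internal, 256587 to 275105). It had no late peak, against 9.19%, 19.7% and 22.1% as the lowest, median and highest in gonads. As a description, over the 39 runs the median late minus gonad difference in cover was -7.67 percentage points, and 3.43 over all runs.

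Several of the long end runs had their own course. Scaffold 52 (end, 1595056 to 1695569) had no late peak, and 8.08% cover at 0hr, 3.30% at 46hr and 1.08% at 60hr, against 0%, 0.668% and 2.51% as the lowest, median and highest in gonads. Scaffold 293 had no peak at 46hr or 60hr but 1 peak at 5day, with 1383 and 7136 reads in the columns and a density of 93.5. Scaffold 168 (end, 216239 to 307271) had 5.85%, 3.69% and 3.07% cover in the late lists and no peak at 60hr, with 11.2% at 0hr and 6.03% at 46hr. Its gonad cover was 38.3% in ovary3 and 1.46% to 6.57% in the other 5 lists. Scaffold 106 (internal, 534057 to 624929) was, with scaffold 35, 1 of 2 runs with a peak in all 12 lists. Its late cover was 2.53%, 1.17% and 2.76%, against 12.2%, 6.84% and 6.09% at 0hr, 46hr and 60hr.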

How the data were processed

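Per the file headers, each deposited table lists 1 stage's CENP-A peaks with 2 columns of coverage, each a whole-number read count at that peak as the authors deposited it, and the mark retained or eliminated. The headers do not say which library is which column. The submitters' processing notes list MACS2 and Bowtie2, with no role stated. Their versions and settings are not given in the sources used here. The tables list only called peaks, so a run without a peak has no count. Of 62 samples, 24 were used.

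Counts of both libraries were summed per run of peaks of 1 mark (667 runs) and tested with edgeR 4.0.16 (quasi-likelihood, TMM, filterByExpr with a minimum count of 10). Cover was tested with limma 3.58.1 (trend, robust) in runs with a mean cover of at least 1%. p-values were adjusted by Benjamini-Hochberg over all runs. Counts at an unadjusted p under 0.05 were made for the member runs alone and have no share over all runs beside them. DESeq2 1.42.0 was an alternative. Classes were of 3 lists: testis, ovary, hours and late. How either test behaves in runs without a peak in some of the lists was not tested. Named runs were the 6 longest of each position, the runs called by reads, runs with more late than hours cover, runs nearest the 400 kb limit and the 3 of highest gonad density. Other runs were named after their values were seen.

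The runs, lists and tests were chosen with earlier results of these data known. Same-numbered ovary and testis lists deviated together in cover, with correlations of 0.293, 0.133 and 0.260 over 663 runs. Lists of different numbers were not correlated for contrast. The reported tests of ovary against testis did not pair the lists. Pairing by number, taken from the data alone, was used only as an alternative (the replicate block).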

Additional observations from a re-analysis of the deposited data

Results flagged for a closer look

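Among the 6 gonad lists, the highest or lowest list was tested for standing apart from the others (Dixon's test) in 29 sets of values, and 14 stood apart. For normally distributed values chance alone would do so in about 1 set in 20. Several sets hold lists without a peak, so this rate need not hold for them. The sets are also not independent, because they share lists. Ovary3 was far above the other gonad lists in cover on scaffold 156 (19.7%), scaffold 168 (38.3%), scaffold 54 (15.8%), scaffold 236 (32.2%), scaffold 169 (16.0%), scaffold 145 (42.2%), scaffold 178 (55.9%), scaffold 189 (49.3%) and scaffold 95 (2.38%). Testis1 was far above the rest in the internal run on scaffold 174 (52.2% cover), in the share of all reads in peaks that lay in the 39 runs (3.29%) and in the internal runs (2.35%), and in the density of internal runs relative to retained peaks (8.40 times). Testis2 was far above the rest in the density of end runs relative to retained peaks (5.47 times), and its peak on scaffold 293 held 34.7% of its reads in the 39 runs.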

How the results depend on the processing

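The calls moved with the tool and with single lists. In the late comparisons most runs called at the reported settings had no late peak, so these counts say nothing of stability. By reads, edgeR called 8 members between late and gonad lists, DESeq2 25, and 4 to 10 were called with 1 list left out. Between late and hours lists edgeR called 3, DESeq2 25, a fit of those classes alone 12, and 2 to 5 were called with 1 list left out. Of all 481 runs in the fit of those classes alone, 58 were called lower and 45 higher. By cover the counts were 2 against gonads and 2 against hours. Against gonads, cover rescaled to equal total length in each list gave 5 (40 lower and 102 higher of all 663 runs). Log2 reads per kb gave 13 (81 lower and 95 higher of 663). With 1 list left out it was 1 to 4, lowest without 5day or L1 and highest without testis3 or ovary2. Against hours, rescaled cover gave 0 (4 lower and 29 higher of 663) and log2 reads per kb 4 (23 lower and 15 higher). A fit of those classes alone gave 6 (72 lower and 28 higher of 595). Leaving out 60hr gave 5, and leaving out any other list of the late or hours classes gave 0. For ovary against testis, edgeR called 0 members, also with the replicate block (0 in reads and cover), DESeq2 called 8, and 0 to 1 were called with 1 list left out. In log2 reads per kb, same-numbered gonad lists had correlations of 0.254, 0.0694 and 0.195. Whether the numbers pair the lists cannot be told from these values. Over all runs, edgeR called 34 higher and 8 lower with the block, against 22 and 2 without it. Either coverage column alone gave 8 and 9 calls against gonads. The cause of these shifts was not tested.

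Late cover averaged 2.57%, but was 0% as a median over runs, 1.62% from peaks at or over the median density and 1.36% without scaffold 174. Hours density averaged 19.5, and 16.4 under a 200 kb limit. End minus internal cover in gonads (1.13) was -0.927 under a 200 kb limit and 3.76 without scaffold 174, in hours (0.149) it was 1.69 with ends taken within 10 kb, and in the late lists (-4.93) it was -2.71 with those ends and -2.19 without scaffold 174. End minus internal density in hours (6.07) was 0.814 under a 200 kb limit and 4.34 with ends within 10 kb, and in the late lists (4.16) it was -3.03 with those ends and 10.6 without scaffold 174. The run to leave out was chosen after seeing the data. Depth is known only within called peaks, so absence of a peak sets no limit on reads there.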
